A study of Mus musculus with 10 samples.

Results

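The genes described here are 33 genes grouped as photoreceptor outer segment and degeneration genes. Most act in or for the outer segment, and mutations in many of them are linked to inherited retinal disease. The group was taken by symbol from a table of 53974 genes, and all 33 were found. The genes were sorted into 5 roles by what their products do. There were 6 genes of the discs and membrane, 10 of the axoneme, cilium and transport, 10 of cGMP and calcium feedback and of shut-off of the light response, 5 of retinoid handling and the matrix, and 2 of the cell junction and synapse. In the ATAC-seq comparison, 9 of 16600 regions lay within 1000 bp of an end of one of these genes, at 9 different genes.

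The study asked how deletion of *Arid1a*, a subunit of the BAF chromatin remodelling complex, alters chromatin and RNA in retinal ganglion cells (RGCs), the neurons whose axons form the optic nerve, after optic nerve crush (ONC). C57BL/6 mice of 8 to 10 weeks that all carried floxed *Arid1a* received AAV2-GFP, labelled WT with the genotype Arid1a fl/fl, or AAV2-Cre, labelled cKO with the genotype Arid1a del/del, by injection into the vitreous, and retinas were taken 3 days after ONC. Injection preceded ONC by 2 weeks, so that both groups were injected and injured. Each sample pooled 4 to 5 retinas, and cells stained for Thy1.2 were sorted by FACS. Thy1.2 is also carried by T cells, and AAV2 in the vitreous is not restricted to RGCs. RNA-seq comprised 3 WT and 3 cKO libraries, and ATAC-seq, in which a transposase marks open chromatin, comprised 2 WT and 2 cKO libraries.

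A photoreceptor outer segment is a modified cilium packed with membrane discs. Its discs hold the visual pigment, a connecting cilium carries proteins into it, and cGMP-gated channels close in light. Recovery needs phosphorylation of the pigment, calcium-controlled synthesis of cGMP, and the exchange of retinoids with the pigment epithelium across a matrix. Discs are made and shed every day, and mutations in many of these genes cause retinitis pigmentosa, cone-rod dystrophy or Leber congenital amaurosis. Most of these genes are not known for a role in RGCs.

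Defining markers went against the label of the cells. Among 14 RGC markers, *Pou4f2* was listed at 0 TPM, a unit of transcript abundance that allows for transcript length and is relative to the library's total, in 5 of 6 RNA-seq libraries and at 0.143 TPM in the other, *Pou4f3* was at 0.0532 TPM or below, and *Slc17a6* lay between 0.593 and 1.57 TPM. Others of the 14 were present at low to moderate levels, with 3.45 to 12.0 TPM of *Tubb3*, 5.47 to 20.6 TPM of *Nefl*, 24.3 to 67.9 TPM of *Gap43* and 51.9 to 129 TPM of *Thy1*, which encodes the antigen of the sort. The summed level of the 14 markers was 135 to 185 TPM in the WT libraries and 171 to 219 TPM in the cKO libraries. *Gnat1*, which encodes rod transducin, had 2501 to 3772 TPM in WT and 5815 to 10396 TPM in cKO. The targeted gene was not lower in the libraries labelled cKO. *Arid1a* had 18.8, 11.7 and 14.1 TPM in WT replicates 1, 2 and 3 and 18.8, 27.9 and 25.0 TPM in cKO replicates 1, 2 and 3 (log2 difference 0.66, SE 0.28, limma adjusted p = 0.274), and the values per gene do not show the floxed exons alone. WT and cKO below therefore mean the libraries labelled so, and every direction in the RNA rests on these labels.

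Promoter sequences are shown for 8 of the genes, 4 for a start inside an ATAC-seq region and 4 for a motif before a start outside any region. The latter were picked for holding the motif, so the sets do not compare starts inside and outside regions. RefSeq on GRCm38.p6 listed start sites for 28 of the 33 genes. The first 4 sequences are the 250 bases before a start that lay inside an ATAC-seq region, at chr19:8929357-8929606 on the minus strand for *Rom1*, chr10:100487332-100487581 on the plus strand for *Cep290*, chr19:46573183-46573432 on the minus strand for *Arl3* and chrX:10216796-10217045 on the minus strand for *Rpgr*, and they hold no capitals because neither motif was found in them.
Rom1: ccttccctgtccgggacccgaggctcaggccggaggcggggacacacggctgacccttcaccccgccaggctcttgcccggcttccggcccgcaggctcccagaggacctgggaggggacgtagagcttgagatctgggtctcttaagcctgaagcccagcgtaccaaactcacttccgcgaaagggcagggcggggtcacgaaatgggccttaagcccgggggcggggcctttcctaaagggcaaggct
Cep290: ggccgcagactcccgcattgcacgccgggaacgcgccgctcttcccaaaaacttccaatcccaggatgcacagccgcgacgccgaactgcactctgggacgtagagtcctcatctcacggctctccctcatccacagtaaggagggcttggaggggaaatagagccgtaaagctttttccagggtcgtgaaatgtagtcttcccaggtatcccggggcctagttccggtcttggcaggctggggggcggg
Arl3: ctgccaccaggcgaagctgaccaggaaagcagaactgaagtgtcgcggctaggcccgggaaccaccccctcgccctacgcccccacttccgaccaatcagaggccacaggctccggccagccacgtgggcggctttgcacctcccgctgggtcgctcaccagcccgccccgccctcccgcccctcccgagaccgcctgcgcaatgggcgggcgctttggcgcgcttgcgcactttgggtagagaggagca
Rpgr: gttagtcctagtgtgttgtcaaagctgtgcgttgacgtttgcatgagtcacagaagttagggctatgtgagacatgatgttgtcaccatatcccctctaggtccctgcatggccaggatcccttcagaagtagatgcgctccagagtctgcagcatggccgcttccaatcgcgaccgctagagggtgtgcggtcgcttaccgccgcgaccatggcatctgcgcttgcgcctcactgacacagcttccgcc

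The other 4 are the 250 bases before starts that lay outside any region and that hold TAATCC, the letters of the site bound by homeodomain factors of the CRX and OTX type, which are known to switch on photoreceptor genes. Capitals mark TAATCC or its reverse complement GGATTA. They lie at chr14:33953753-33954002 on the plus strand for *Rbp3*, chr3:122044210-122044459 on the plus strand for *Abca4*, chr14:52110653-52110902 on the plus strand for *Rpgrip1* and chrX:142196937-142197186 on the minus strand for *Gucy2f*.
Rbp3: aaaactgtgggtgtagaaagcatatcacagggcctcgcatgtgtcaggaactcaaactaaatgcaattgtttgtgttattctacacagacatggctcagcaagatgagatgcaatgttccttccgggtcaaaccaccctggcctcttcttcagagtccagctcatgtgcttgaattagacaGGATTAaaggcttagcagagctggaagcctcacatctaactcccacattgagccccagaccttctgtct
Abca4: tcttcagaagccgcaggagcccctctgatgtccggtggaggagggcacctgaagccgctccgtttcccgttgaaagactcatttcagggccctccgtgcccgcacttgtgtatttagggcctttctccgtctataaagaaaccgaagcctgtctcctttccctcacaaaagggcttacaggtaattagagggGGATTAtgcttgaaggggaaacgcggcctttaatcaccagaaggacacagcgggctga
Rpgrip1: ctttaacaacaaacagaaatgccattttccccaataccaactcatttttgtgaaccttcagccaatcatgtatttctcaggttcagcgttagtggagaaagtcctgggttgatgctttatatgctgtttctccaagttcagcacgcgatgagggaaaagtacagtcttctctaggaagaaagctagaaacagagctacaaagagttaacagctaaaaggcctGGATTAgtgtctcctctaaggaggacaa
Gucy2f: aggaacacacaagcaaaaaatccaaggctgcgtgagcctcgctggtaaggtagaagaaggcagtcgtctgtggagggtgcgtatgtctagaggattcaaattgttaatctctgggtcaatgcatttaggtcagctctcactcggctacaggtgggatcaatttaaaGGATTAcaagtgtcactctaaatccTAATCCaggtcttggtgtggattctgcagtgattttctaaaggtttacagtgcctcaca

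Across the 33 genes, RNA was higher on average in the cKO libraries for 32, beside 61.1% of all genes tested, and lower for 1, *Crb1*. The median log2 difference of the 33, on the log2(TPM + 1) scale and cKO minus WT, was 1.27, beside 0.16 over all 17555 genes tested. After scaling by the median of ratios these medians were 1.10 and 0.01, and the direction of all 33 genes was kept. With limma and an adjusted p under 0.05, 0 of the 33 were called, and the lowest adjusted p was 0.124. Across all genes tested, 0.0057% were called higher at that threshold and 0% lower. At an unadjusted p under 0.05 from limma, 29 of the 33 were higher and 0 lower, beside 11.9% of all genes higher and 6.45% lower. After scaling by the median of ratios 28 were higher at that threshold, beside 7.62% of all genes, and with replicate numbers entered as a block 28, beside 13.4%. In 27 of the 33 every cKO library lay above every WT library, as in 18.7% of all genes, and after the scaling this held for 26, beside 12.5% of all genes. In 0 of the 33 did every cKO library lie below, as in 7.18% of all genes. With 3 libraries against 3 an exact two-sided permutation test cannot give a p under 0.1, and each of the 27 genes had that value.

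**Figure D1:**
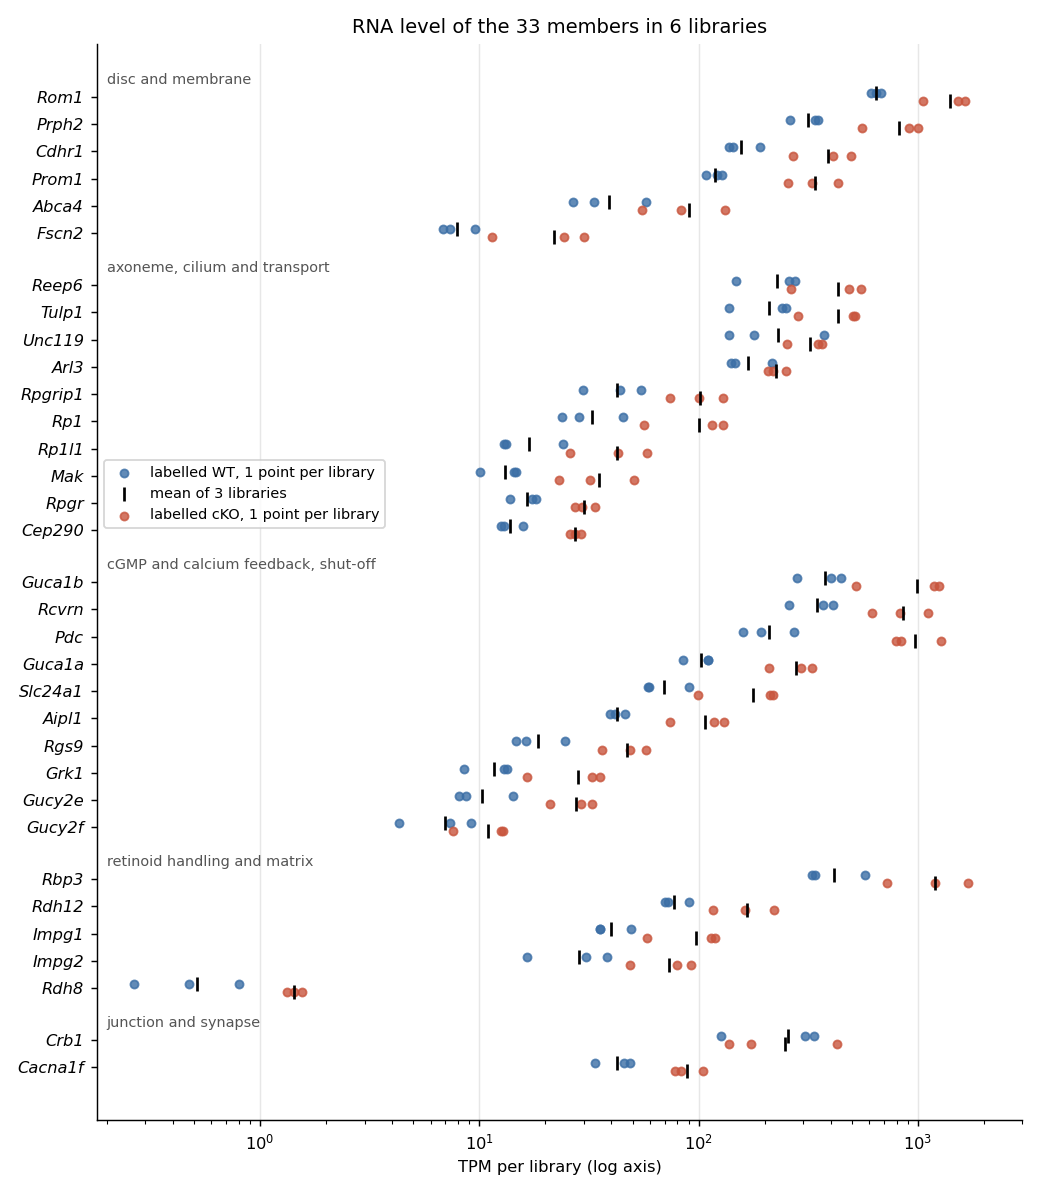
TPM of the 33 genes (log axis) in each of the 3 libraries labelled WT (blue) and the 3 labelled cKO (red), sorted by role and mean level, with a black bar at each group's mean. The groups are apart in 27 genes, and *Crb1* is the one gene whose cKO mean lies below its WT mean.

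The 33 genes together made up 0.376%, 0.422% and 0.496% of the TPM of WT replicates 1, 2 and 3, and 0.709%, 1.19% and 1.17% of that of cKO replicates 1, 2 and 3. Their summed level was 4307 ± 611 TPM (SD, n = 3) in WT and 10190 ± 2699 TPM (SD, n = 3) in cKO, a ratio of 2.37. The cKO libraries differed among themselves, since cKO replicate 1 was the lowest of the 3 in 29 of the 33 genes. WT replicate 3 was the highest of the WT libraries in 23. The ratio of the group means was between 2 and 3 in 24 genes, under 2 in 7 and over 3 in 2, *Pdc* and *Rp1*. In tissue mixed from several cell types, more cells of one type and more RNA per cell cannot be told apart.

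**Figure D2:**
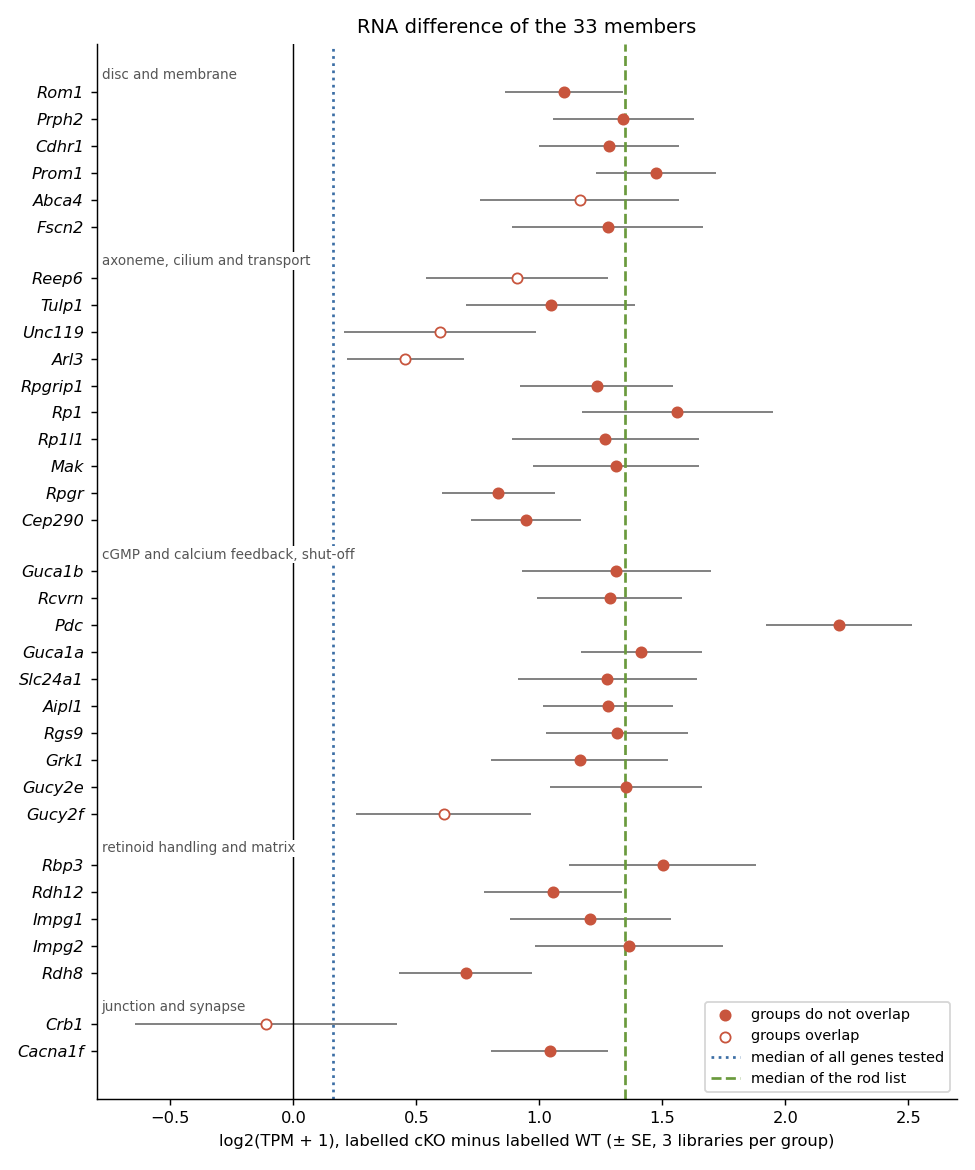
Difference in log2(TPM + 1) between cKO and WT for each of the 33 genes with its standard error from limma, filled where the groups do not overlap. The dotted line is the median of all genes tested at 0.16 and the dashed line the median of 11 rod markers at 1.35, and *Pdc* at 2.22 and *Crb1* at -0.11 are the extremes.

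The levels of the 33 genes spanned 3 orders of magnitude in TPM. *Rom1* stood first with a mean of 1026 TPM over the 6 libraries, rank 97 of all genes. *Rbp3* followed at 808 TPM, *Guca1b* at 682 TPM, *Rcvrn* at 600.1 TPM, *Pdc* at 590.4 TPM and *Prph2* at 570 TPM. Within the WT libraries alone, *Rom1* at 645 ± 34.4 TPM (SD, n = 3) lay above the others of this group in every library. *Rbp3*, *Guca1b*, *Rcvrn* and *Prph2* had overlapping WT values there, from 260 to 575 TPM. At the low end, *Gucy2f* had a mean of 8.97 TPM and *Rdh8* of 0.976 TPM, while 16 of the 33 exceeded 100 TPM.

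All 6 genes of the discs and membrane were higher at an unadjusted p under 0.05, and 5 did not overlap between the groups. Their log2 differences ran from 1.10 to 1.47, with a median of 1.28. *Rom1* and *Prph2* encode paired tetraspanins that shape the disc rim. *Rom1* had 645, 610, and 679 TPM in the WT libraries and 1060, 1637 and 1525 TPM in the cKO libraries (log2 difference 1.10, SE 0.24, limma adjusted p = 0.124). *Prph2* had 338, 261 and 351 TPM in WT and 555, 1005 and 909 TPM in cKO (log2 difference 1.34, SE 0.29, limma adjusted p = 0.124). All 3 cKO libraries were above the WT libraries for both partners, and in each of the 6 libraries *Rom1* was the more abundant of the pair.

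*Cdhr1*, a cadherin at the growing discs, had 143, 137 and 190 TPM in WT and 268, 409 and 494 TPM in cKO (log2 difference 1.28, SE 0.28). *Prom1*, a protein of membrane protrusions that other cells also make, had the largest difference of this role at 1.47 (SE 0.24, 95% interval 0.90 to 2.05). *Abca4*, which flips retinoid conjugates across the disc membrane, had 26.9, 33.4 and 57.3 TPM in WT and 55.0, 83.1 and 132 TPM in cKO. WT replicate 3 lay just above cKO replicate 1, so that its groups overlapped. *Fscn2*, an actin bundler, was the least abundant of the role at a mean of 14.96 TPM, with no overlap.

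Of the 10 genes of the axoneme, cilium and transport, all had a higher mean in cKO, 8 had an unadjusted p under 0.05 and 7 did not overlap. Their median log2 difference of 1.00 was below that of the disc genes, and it ranged from 0.45 to 1.56. *Rp1*, an axonemal microtubule protein of photoreceptors, had the largest difference in this role (log2 1.56, SE 0.39) and *Arl3* the smallest. *Arl3*, a small GTPase that releases lipidated cargo in the cilium, had 140, 216 and 146 TPM in WT and 219, 252 and 206 TPM in cKO (log2 difference 0.45, 95% interval -0.11 to 1.01), and WT replicate 2 lay among the cKO libraries. *Unc119*, the carrier from which such cargo is released, had 137, 375 and 179 TPM in WT and 252, 349 and 365 TPM in cKO. WT replicate 2 was the highest of all 6 libraries for *Unc119*, and the interval of its log2 difference of 0.60 ran from -0.32 to 1.52. Both genes are active in many other cells as well.

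*Reep6*, an endoplasmic reticulum protein used in rod membrane traffic, had 149, 258 and 274 TPM in WT and 263, 485 and 550.1 TPM in cKO, so that cKO replicate 1 fell between WT values. *Tulp1*, a phosphoinositide-binding transport protein, had 137, 241 and 251 TPM in WT and 284, 504 and 515 TPM in cKO. Its groups did not overlap, although WT replicate 1 was well below the other WT libraries.

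Genes of the connecting cilium were lower in level. *Cep290*, a scaffold of the transition zone in many ciliated cells, had 15.8, 12.6 and 13.0 TPM in WT and 26.01, 29.1 and 27.2 TPM in cKO (log2 difference 0.95, SE 0.22). *Rpgr*, a regulator at the same place, had 13.9, 18.2 and 17.5 TPM in WT and 33.6, 29.4 and 27.3 TPM in cKO (log2 difference 0.83, SE 0.23). Both had cKO libraries that were close to one another, and for *Rpgr* cKO replicate 1 was the highest library. *Rpgrip1*, which anchors RPGR, had 43.8, 29.7 and 54.5 TPM in WT and 74.3, 100.4 and 129 TPM in cKO (log2 difference 1.23, SE 0.31). *Mak*, a kinase that limits cilium length, had 14.7, 10.1 and 14.3 TPM in WT and 23.1, 50.6 and 32.1 TPM in cKO. *Rp1l1*, a relative of *Rp1*, lay between 13.0 and 24.1 TPM in WT and between 25.96 and 58.1 TPM in cKO.

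Of the 10 genes of cGMP and calcium feedback and of shut-off, 9 had an unadjusted p under 0.05 and did not overlap, and all 10 had a higher cKO mean, with a median log2 difference of 1.30. *Pdc*, phosducin, which binds the beta and gamma subunits of transducin, had the largest difference of the 33. It had 192, 160 and 274 TPM in WT and 840, 1280 and 797 TPM in cKO. The lowest cKO library was well above the highest WT library, and the ratio of the means was 4.66 (log2 difference 2.22, SE 0.30, 95% interval 1.52 to 2.92, limma adjusted p = 0.124). *Guca1b*, a guanylate cyclase activator that senses calcium, had 282, 402 and 445 TPM in WT and 524, 1186 and 1251 TPM in cKO. *Rcvrn*, recoverin, which holds back the kinase GRK1 at high calcium, had 409, 260 and 370.3 TPM in WT and 621, 1111 and 829 TPM in cKO. Groups were apart for both, and the lowest cKO library was cKO replicate 1.

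The cyclases that these sensors regulate were less abundant than the sensors. *Gucy2e* lay between 8.10 and 14.2 TPM in WT and between 21.0 and 32.7 TPM in cKO. *Gucy2f*, its relative on the X chromosome, had the smallest difference of the role (log2 0.61, 95% interval -0.23 to 1.45), and its groups overlapped. *Guca1a*, the second activator, had a log2 difference of 1.42 (SE 0.25). The shut-off genes *Grk1* for a kinase of the light response and *Rgs9* for the GTPase accelerator had means of 19.96 and 32.96 TPM over the 6 libraries and log2 differences of 1.16 and 1.32. *Slc24a1*, the rod sodium, calcium and potassium exchanger, and *Aipl1*, a chaperone of the rod phosphodiesterase, both had a log2 difference of 1.28.

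All 5 genes of retinoid handling and the matrix were higher at an unadjusted p under 0.05 with no overlap, and their median log2 difference was 1.21. *Rbp3*, the retinoid carrier between photoreceptors and pigment epithelium, had 340, 328 and 575 TPM in WT and 722, 1198 and 1688 TPM in cKO (log2 difference 1.501, SE 0.38). WT replicate 3 and cKO replicate 3 were each the highest of their group. *Rdh12*, a retinal reductase of the inner segment, had 70.01, 72.2 and 90.7 TPM in WT and 116, 221 and 164 TPM in cKO. *Impg1*, a proteoglycan of the interphotoreceptor matrix, had 35.5, 35.4 and 49.1 TPM in WT and 58.3, 119 and 114 TPM in cKO, and its partner *Impg2* had a log2 difference of 1.37 (SE 0.38). *Rdh8*, the retinal reductase of the outer segment, was barely detected, at 0.266, 0.807 and 0.472 TPM in WT and 1.43, 1.32 and 1.56 TPM in cKO. It passed the filter of 1 TPM in 3 libraries through the cKO libraries alone, and a gene that passes in this way has to be higher there. It is 1 of the 29 and 1 of the 27.

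The 2 genes of the junction and synapse went apart. *Cacna1f*, the calcium channel subunit of the photoreceptor ribbon synapse, had 33.7, 48.7 and 45.6 TPM in WT and 77.9, 83.4 and 104 TPM in cKO (log2 difference 1.04, SE 0.24), with no overlap. *Crb1*, which holds the outer limiting membrane together and is also made by Mueller glia, had 126, 307 and 335 TPM in WT and 138, 174 and 430 TPM in cKO (log2 difference -0.11, SE 0.53, 95% interval -1.37 to 1.15). The *Crb1* values of both groups were fully intermixed, with 1 low WT library and 1 high cKO library, and the sign turned to a positive difference between 0.05 and 0.22 without WT replicate 2, WT replicate 3, cKO replicate 1 or cKO replicate 2.

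The library order of *Crb1* stands beside that of 11 Mueller glia markers. Their summed level was 14309 to 26766 TPM in WT and 10549 to 25243 TPM in cKO, all 11 had a log2 difference below 0, with a median log2 difference of -0.62, and 3 had an unadjusted p under 0.05. *Clu*, the most abundant, had 4845, 6384 and 8014 TPM in WT and 2840, 3220 and 7524 TPM in cKO. WT replicate 1, cKO replicate 1 and cKO replicate 2 were thus the lowest 3 libraries for both *Clu* and *Crb1*. The part of Mueller glia in the *Crb1* values was not tested.

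The 25 genes taken here as chiefly photoreceptor genes within the retina, some of which are also used in other tissues, had a median log2 difference of 1.28, and 22 did not overlap. The 8 taken as used by other retinal cells too (*Prom1*, *Rpgr*, *Cep290*, *Arl3*, *Unc119*, *Rcvrn*, *Crb1* and *Cacna1f*) had a median of 0.89, and 5 did not overlap. The difference between the sets was not tested.

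Markers of rods differed between the groups to a like extent. The 11 rod markers, none of which is among the 33, were all higher in cKO, all with an unadjusted p under 0.05 and no overlap, and their median log2 difference was 1.35. Their summed level was 13368 to 18584 TPM in WT and 27639 to 51201 TPM in cKO, with none of the defining markers at 0. *Gnat1* had 3122, 2501 and 3772 TPM in WT replicates 1, 2 and 3 and 5815, 10206 and 10396 TPM in cKO replicates 1, 2 and 3. The 9 cone markers also all had log2 differences above 0, with a median log2 difference of 0.97, and 7 of them did not overlap. Their sums were 2021 to 2530 TPM in WT and 3552 to 6185 TPM in cKO.

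To describe the genes against rods within each library, the median log2(TPM + 1) of the 11 rod markers was subtracted from that of the 33 genes. The remainder was -2.13, -1.58 and -1.60 in WT and -2.39, -1.97 and -1.57 in cKO. The groups overlapped, and their means differed by -0.21, where the same medians of the 33 genes alone differed by 1.138. Against this rod level, 26 of the 33 genes had a difference between cKO and WT within 0.5 on the log2 scale. *Prph2* was at -0.01. *Pdc* was the 1 gene above in every cKO library. Its values against the rod level were -0.02, 0.12 and 0.64 in WT and 1.03, 1.31 and 1.01 in cKO, a difference of 0.87. *Arl3* (-0.89) and *Cep290* (-0.40) were the 2 genes below in every cKO library, and *Crb1* had the lowest difference at -1.46 with overlapping groups. Taking the cone markers in place of the rod markers gave a difference of -0.84 over the 33 genes. The remainders were then -1.25, 0.45 and -0.61 in WT and -1.74, -1.37 and -0.80 in cKO, so that the groups overlapped. The cone median itself was 5.19 in WT replicate 2, beside 6.73 and 6.47 in WT replicates 1 and 3. Gene by gene, the cone markers had a median log2 difference of 0.97, below the 1.27 of the 33 genes. On the cone scale *Pdc* overlapped at 0.24, and 5 genes lay below without overlap, *Arl3* and *Cep290* among them. The share of all genes without overlap on these scales was not computed. These few genes are therefore named as values only, and whether they depart from the rod or cone level was not tested.

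**Figure D3:**
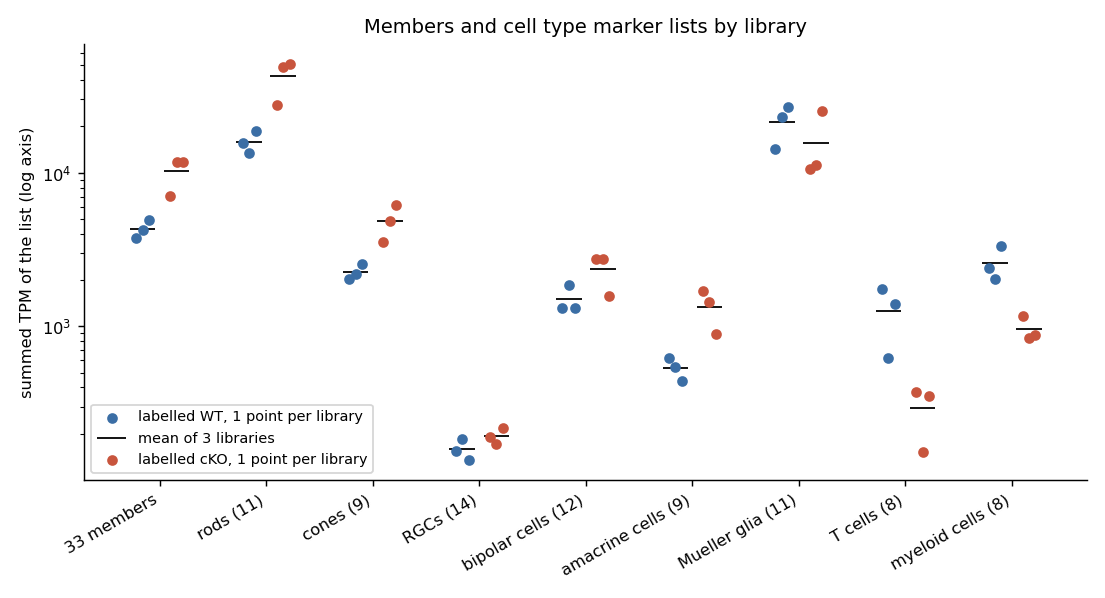
Summed TPM (log axis) of the 33 genes and of 8 lists of cell type markers in each library labelled WT (blue) or cKO (red), with the number of genes in brackets and a black line at each group's mean. The 33 genes and the rod, cone and amacrine cell markers are higher in all 3 cKO libraries, T cell and myeloid markers are lower in all 3, and RGC and Mueller glia markers overlap.

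The lists nearest in function to the 33 genes were taken next. Of 16 other photoreceptor disease genes, all had a log2 difference above 0, 15 had an unadjusted p under 0.05, and their median log2 difference was 1.02. Of 8 regulators of photoreceptor genes, 6 had an unadjusted p under 0.05 and 1 had a log2 difference below 0, with a median of 1.197. Among them *Crx*, the homeodomain factor named above, had 116, 117 and 135 TPM in WT and 235, 337 and 316 TPM in cKO (log2 difference 1.25, SE 0.22, limma adjusted p = 0.124). Of 32 ciliary disease genes that most cells express, 28 had a log2 difference above 0 and 7 had an unadjusted p under 0.05, with a median of 0.58. Of 8 splicing factor genes linked to retinitis pigmentosa, 0 had an unadjusted p under 0.05 and the median was 0.28. The 9 Usher syndrome genes tested, of 10, had 2 at an unadjusted p under 0.05 and a median of 0.03. No gene of these lists passed an adjusted p under 0.05 with limma.

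Marker lists of other cell types gave the following values. All 12 bipolar cell markers had a log2 difference above 0 (median 0.53, 1 with an unadjusted p under 0.05), as did 8 of 9 amacrine cell markers (median 0.79, 3 with an unadjusted p under 0.05), whose sums were 441 to 620 TPM in WT and 891 to 1702 TPM in cKO. Of 14 RGC markers, 11 were tested and had a median of 0.02, and 3 were higher at an unadjusted p under 0.05. The 8 T cell markers had log2 differences below 0, with a median of -2.08, 7 with an unadjusted p under 0.05, and sums of 623 to 1751 TPM in WT and 151 to 372 TPM in cKO. The 4 B cell markers (median -2.17, 3 with an unadjusted p under 0.05) and the 8 myeloid markers (median -0.97, 4 with an unadjusted p under 0.05, sums of 2047 to 3351 TPM in WT and 840 to 1161 TPM in cKO) all had log2 differences below 0 as well. Endothelial, erythrocyte and pigment epithelium markers that were tested, 4, 5 and 3 in number, all had log2 differences below 0, with medians of -0.78, -0.95 and -0.41, and the 1 horizontal cell marker tested of 4 had a difference of 1.06. The part of these shifts in the values of the 33 genes was not tested.

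The ATAC-seq files allowed the same genes to be looked at in chromatin. The comparison gives the authors' log2 of mean normalized reads for each group over 2 libraries, with no value per library, so that no spread can be given, and the p-values that the authors list there were not used. Of the 33 genes, 9 (27.3%) had a region within 1000 bp of an end, beside 20.6% of all listed genes and 37.2% of protein-coding genes. None of the 11 rod markers had one, whereas 26 of the 32 ciliary disease genes did (81.2%). Of the 9 regions, 7 were lower in cKO by at least 1 on the log2 scale and 1 was higher by at least 1. Among all 8002 regions at gene ends 89% were lower and 1.7% higher to that extent, and among all regions 59.8% and 8.73%. The median difference was -2.91 over the 9 regions and -2.50 over all regions at gene ends.

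The regions over listed starts belonged to genes used by many cells or shared the region with a neighbouring gene. The region of *Rpgr* (chrX:10216206-10216946) covered its start and went from 4.79 in WT to 0.27 in cKO (difference -4.52). The region of *Cep290* (chr10:100486904-100487865) covered its start, also lay at an end of *Tmtc3*, and went from 6.08 to 3.17 (difference -2.91). That of *Arl3* (chr19:46572814-46573551) also lay at an end of *Sfxn2* and went from 5.20 to 2.05 (difference -3.15). That of *Rom1* (chr19:8929096-8930242) also lay at an end of *Eml3* and went from 5.65 to 3.36 (difference -2.29). All 4 had a peak in both WT libraries and in neither cKO library, and signal over a shared end cannot be assigned to one gene.

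Of the remaining 5 regions, 3 lay at an end shared with other genes. The region at *Rpgrip1* (chr14:52103771-52104703, 6.76 to 2.71) lay at an end of *Hnrnpc* and covered the upstream boundary of *Rpgrip1* itself at chr14:52104241. It was 6200 bp from the listed start used above, which lies inside the gene. The region at *Reep6* (chr10:80329492-80330177, 5.62 to 2.07) also lay at *Pcsk4*, and that at *Tulp1* (chr17:28351034-28351897, 3.91 to 2.51) lay at the far end of the gene, beside *Tead3*. *Abca4* had a weak region (chr3:122043810-122044098, 2.94 to 2.32), with a peak in WT replicate 1 and cKO replicate 2. It covered the upstream boundary of the gene at chr3:122043891 and ended 362 bp before the listed start used above. Among the 9, *Mak* was the 1 gene with more signal in cKO, from -0.19 to 2.71 in a region that ended 547 bp before its start (chr13:41080253-41080605, difference 2.90), where peaks were called in cKO replicates 1 and 2 but no WT library. That region had a mean of 0.877 normalized reads in WT and 6.54 in cKO, and the start of *Mak* itself lay inside a peak of WT replicate 1. Counting regions anywhere within the genes too, 12 of the 33 genes had one. The median difference was then -1.21, beside -1.57 over all 16600 regions. The share of all genes with a region in this wider window was not computed. Among the regions added by the wider window, those at chr1:4328885-4329504 within *Rp1* (-0.19 to 3.68, difference 3.87) and chr14:64028252-64029003 within *Rp1l1* (2.76 to 4.08, difference 1.32) also had more signal in cKO. The WT value of this *Rp1* region was as low as that at *Mak*. Another region within *Rp1* (chr1:4290702-4291032, 1.82 to 1.96, difference 0.14) hardly differed, and those added within *Abca4* and *Crb1* had less signal in cKO.

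**Figure D4:**
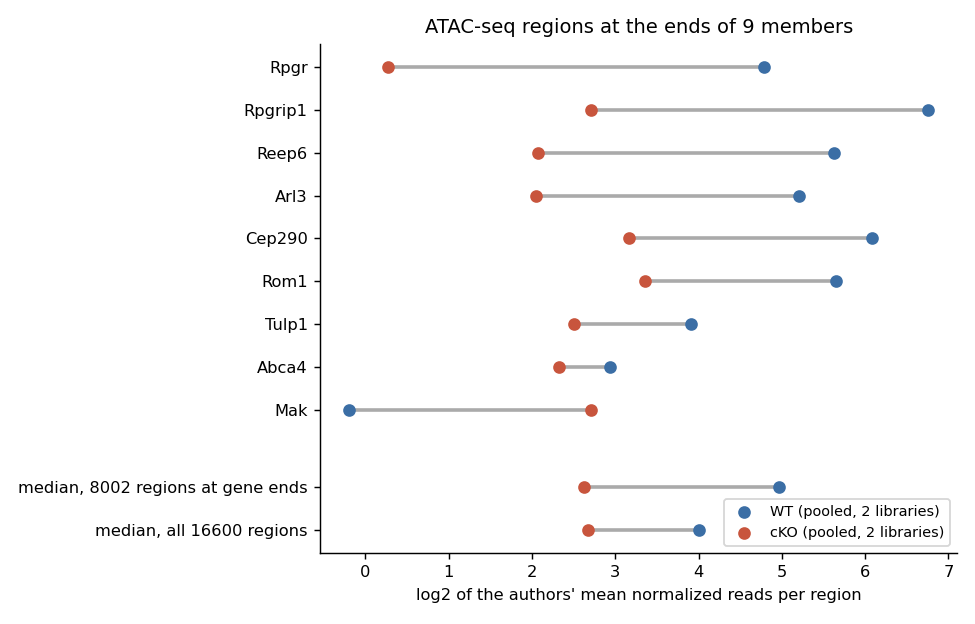
The authors' log2 of mean normalized reads in WT (blue) and cKO (red) for the 9 regions at the ends of the genes, each joined by a line, above the medians of all 8002 regions at gene ends and of all 16600 regions. In 8 regions cKO lies below WT and at *Mak* it lies above, and no error is shown because the values are pooled over 2 libraries per group.

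The RNA of the 9 genes with a region had log2 differences from 0.45 to 1.31 (median 1.05), and that of the 24 without one a median of 1.28. The RNA and ATAC-seq libraries were separate samples, and the pooled chromatin values hold no replicates to relate to the RNA, so no relation was tested.

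Peaks called in single libraries added starts that the comparison does not hold. The lists held 76522 and 42265 peaks in WT replicates 1 and 2 and 55902 and 68317 in cKO replicates 1 and 2. A peak lay within 1000 bp of an end in 12 of the 33 genes in each WT library, where 49.3% and 42.8% of protein-coding genes had one in replicates 1 and 2, and in 4 of the 33 genes in each cKO library, where 12.4% and 12.8% had one. Of the 28 genes with a listed start, 7 had a start inside a peak in each WT library, beside 28.9% and 25.4% of all genes with a listed start. *Rom1*, *Rpgr*, *Cep290* and *Arl3* were among the 7 in both. The others were *Rbp3*, *Crb1* and *Mak* in WT replicate 1 alone and *Gucy2e*, *Rgs9* and *Impg1* in WT replicate 2 alone. The peak of *Rbp3* ran from -407 to 98 bp around its start and that of *Gucy2e* from -104 to 172 bp. In the cKO libraries none of the 28 genes had a start inside a peak, beside 1.44% and 1.26% of all genes, so that the lack of a peak over these starts was shared with almost all genes. The nearest was a peak of cKO replicate 1 from -232 to -16 bp before the start of *Prph2*.

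**Figure D5:**
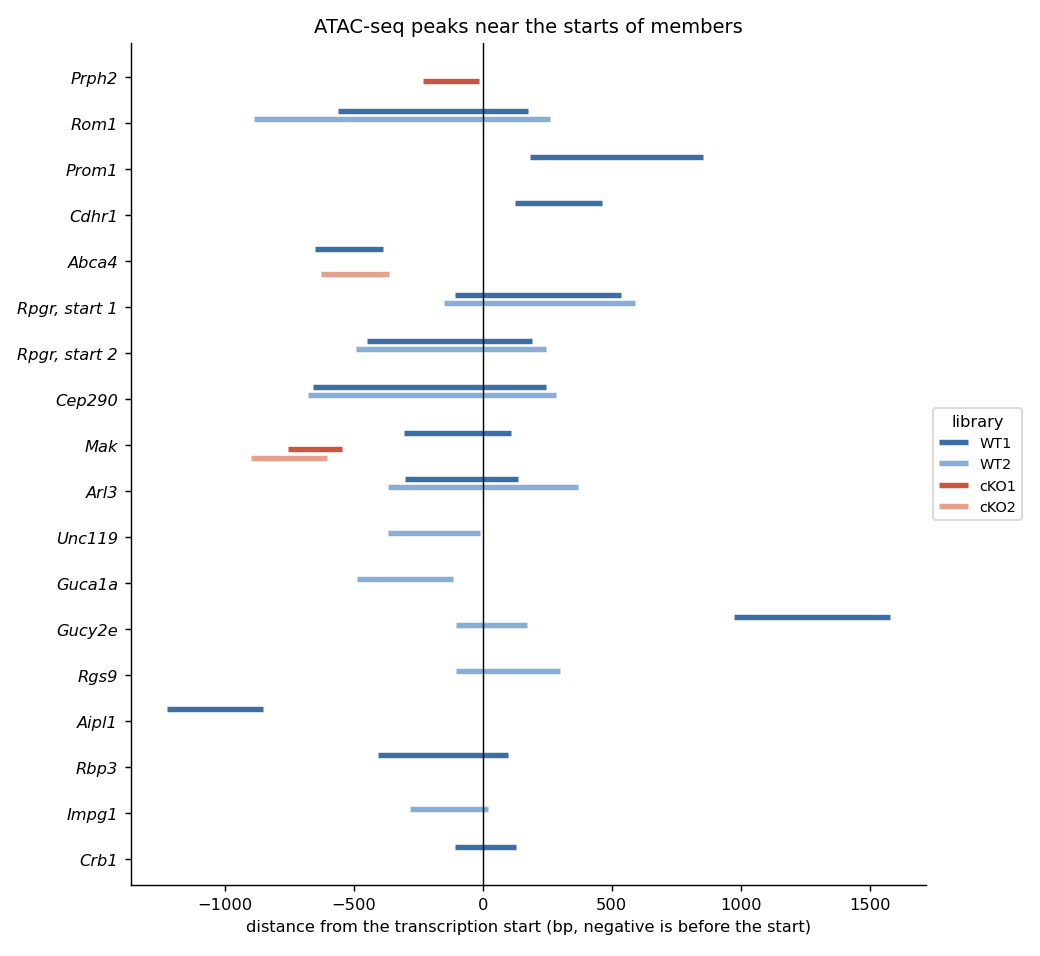
Peaks near the listed starts of the genes in the 4 ATAC-seq libraries, drawn as bars against the distance from the start in bp. Bars of both WT libraries cross the start at *Rom1*, *Rpgr*, *Cep290* and *Arl3*, bars of a single WT library cross it at 6 other genes, and no bar of a cKO library crosses a start.

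The letters of the promoters divided in the same way as the regions. In the 250 bases before a start, the 5 windows of *Rom1*, *Rpgr*, *Cep290* and *Arl3* whose starts lay inside a region had a median GC content of 66.8% and a median of 18 CpG dinucleotides. The 28 windows whose starts lay outside any region had medians of 51% and 4. Over all promoters listed, 7878 windows with a start inside a region had medians of 62.4% and 19, and 24973 windows with a start outside had medians of 49.6% and 4, so the division was not particular to these genes. *Pdc*, with the largest RNA difference, had 1 CpG and 36.4% GC.

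TAATCC on either strand was found in 9 of the 33 windows of 300 bases, which run from 250 bases before to 50 bases after a start, at 9 genes (27.3% of the windows), beside 7.06% of 32851 windows of all promoters. The genes were *Abca4*, *Aipl1*, *Guca1a*, *Gucy2e*, *Gucy2f*, *Mak*, *Rbp3*, *Rpgrip1* and *Unc119*. Counted to the first base of the match, in 6 of them it lay close to the start, at 28 bases before it in *Rpgrip1*, 42 in *Gucy2e*, 53 in *Aipl1*, 57 in *Guca1a*, 58 in *Abca4* and 69 in *Rbp3*. *Aipl1* held another match that began after the start. *Gucy2f* held 2 matches, 84 and 59 bases before the start, while those of *Unc119* and *Mak* lay 118 and 218 bases before a second start of the gene. TGCTGAC, the letters of a core bound by leucine zipper factors of the NRL and MAF type, was found on neither strand of any of the 33 windows, beside 4.67% of all windows. A match is a run of letters and not a measured binding site, and no match says only that these letters are not in the window.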

How the data were processed

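RNA-seq libraries were quantified by the authors with Salmon 1.0.0 and summed to genes, and the deposited values are TPM, which keep no sequencing depth. Counting error of a value is therefore unknown. The study tested counts, which were not used here. Instead TPM were fitted with limma 3.58.1 (R 4.3.3) on log2(TPM + 1) with a trend, for genes with at least 1 TPM in at least 3 of the 6 libraries, and adjusted by the Benjamini-Hochberg method over all genes tested at a threshold of 0.05. A difference on this scale understates that of genes of low TPM. The fit was also run on simulated data with independent errors, which checks how the fit works and supports no result given here.

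ATAC-seq reads were aligned to GRCm38 with Bowtie2 2.3.5.1, and MACS2 2.2.5 is named in the submitters' processing notes. The deposited comparison holds the authors' log2 of mean normalized reads per group, from which the difference was computed, and a log2 difference of 1 was counted. Its fold changes, p-values and FDR, which are the authors' own comparison, were not used. Peak lists give positions only and no height. Depth is not given. Positions are counted from 1, and gene ends, starts and promoters come from RefSeq on GRCm38.p6. Region sequences and proteins were not used here.

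Groups follow the labels, and the labels do not say whether replicates are separate animals, so p-values measure the spread between samples. Same-numbered WT and cKO RNA-seq libraries deviated together for replicates 1 and 3 (r = 0.334 and 0.425 across genes) but hardly for replicate 2 (r = 0.101). This comes from the data and not from the labels, and WT replicate 1 and cKO replicate 2 also correlated at 0.193. Genes, roles and lists were chosen with earlier results of these data known. Values by library were given for the 3 most abundant genes of each role, any gene lower in cKO or failing the filter, and genes with a region. *Crx* is among the 3 most abundant of its list. Other genes were named as extremes of their role or to complete it. Alternatives were a pseudocount of 0.1, other filters, median of ratios, a replicate block, no trend, leaving out each library, other windows and a cone reference. The mean in place of the median of the rod markers was added after seeing the data. Python 3.11.15 with pandas 2.3.3, scipy 1.17.1 and matplotlib 3.10.9 was used.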

Additional observations from a re-analysis of the deposited data

How the results depend on the processing

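The median log2 difference of the 33 genes ranged from 1.07 to 1.51 over the fits that omitted 1 library, with 23 to 29 genes higher and 0 lower at an unadjusted p under 0.05 from limma, 26 to 30 higher without overlap and 0 called at an adjusted p under 0.05. The shares of all genes in these fits were not computed. Groups with fewer libraries separate more easily, so the 18.7% of all genes in the full set is no measure for these counts. With the replicate number as a block, 28 were higher at an unadjusted p under 0.05 (13.4% of all genes) and the lowest adjusted p from limma was 0.0633, so that the block changed no call among them. Over all genes, 1 called higher and 0 called lower became 16 and 8 without the filter, 4 higher without the trend, and 1 lower with the replicate block, and 0 to 1 in each direction when a library was left out. The cause was not tested. *Crb1* (-0.11) ranged from -0.60 without cKO replicate 3 to 0.22, and reversed to 0.08 without WT replicate 2, 0.14 without WT replicate 3, 0.22 without cKO replicate 1 and 0.05 without cKO replicate 2. The difference between the 33 genes and the rod markers was -0.84 with cone markers, -0.19 with the mean of each list (chosen after seeing the data), and -0.41 to -0.01 when a library was left out. With cone markers, whose median was lowest in WT replicate 2, the groups overlapped. Scaling by the median of ratios moved the median of the photoreceptor regulators to 1.03 and that of the splicing factors to 0.11. It turned the median of the RGC markers from 0.02 to -0.11, with 1 higher at an unadjusted p under 0.05 from limma. The median of the Usher genes turned from 0.03 to -0.10, and 10 of the 12 bipolar cell markers stayed above 0. Within 3000 bp of an end, 19 and 16 of the 33 genes had a peak in WT replicates 1 and 2 and 9 and 10 in cKO replicates 1 and 2, beside 59.3%, 51%, 27.6% and 29.6% of protein-coding genes. Within 1000 bp of a listed start 12, 9, 2 and 2 had one, beside 39.5%, 34.5%, 8.22% and 8.23% of all genes with a listed start. No paired analysis was possible because ATAC-seq regions have pooled values and no value per library. Since TPM and group means carry no depth, low genes such as *Rdh8* have an unknown counting error.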
